A study of Mus musculus with 45 samples.

Results

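Total homogenate of the medial prefrontal cortex was compared between 12 mice that drank ethanol and 12 that drank water. The 24 libraries were chosen by their label, as every homogenate of the series, from 44 libraries with counts. The labels describe 45 samples in all. The other libraries hold cells isolated from the same tissue, and here they serve only to test whether an effect differed between the fractions. All mice were C57BL/6J, a common inbred laboratory strain. The ethanol mice could drink 15% (v/v) ethanol on alternate days for 72 days and were killed 24 h after the last day of drinking. The water mice had water over the same 72 days. Neither age nor sex is given in the sources used here. For the homogenate, 5% of the minced tissue suspension was spun down and frozen, so neurons, glia and vessels contributed RNA together. Poly(A) RNA was sequenced, 1 library per mouse.

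The medial prefrontal cortex controls attention, planning and the restraint of habits, and it is among the regions most studied in alcohol dependence. Ethanol enhances GABA-A receptors, inhibits NMDA receptors and acts on several potassium channels, and repeated drinking is known to alter synaptic, stress hormone and immune signalling in the brain. Ethanol is oxidised to acetaldehyde and then to acetate. In the brain catalase and cytochrome P450 2E1 carry out much of the first step, and the mitochondrial enzyme Aldh2 carries out the second.

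Total gene counts ran from 3673811 to 9109247 per ethanol library and from 3973666 to 7837038 per water library, and 16209 to 17533 genes had counts in each of the 24. A count of 0 therefore allows up to 0.329 to 0.817 CPM in a single library, as 3 counts of its own total. This limit covers counting error only. All other CPM values are gene counts scaled to a common library size with the trimmed mean of M values. None of 6 library measures (total counts, genes detected, Rn45s ribosomal RNA, and reads unaligned, outside genes or ambiguous) passed a two-sided permutation test between the groups, with p from 0.104 to 0.83 and adjusted p from 0.612 to 0.83. Slc17a7, the vesicular glutamate transporter of cortical excitatory neurons, was read in every library. It stood between 1123 and 1760 CPM in ethanol libraries and between 844 and 1799 CPM in water libraries. This level cannot check the dissected region, since water mouse 80, high in olfactory bulb genes, had 1380 CPM. The libraries were not uniform in the tissue they held. Genes of the olfactory bulb were high in the libraries of water mice 68 and 80 and ethanol mouse 77. Genes of striatal neurons were high in water mouse 73, and myelin genes in water mouse 73 and ethanol mouse 78. Several results are therefore given with and without these 5 libraries.

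No gene passed the test for an effect of ethanol. Of 13576 genes tested with edgeR's quasi-likelihood test, 0 were higher (0%) and 0 lower (0%) at a false discovery rate (FDR, Benjamini-Hochberg) under 0.05, and the lowest FDR was 0.979. An unadjusted p under 0.05 was found for 467 genes, 216 of them higher (1.59%) and 251 lower (1.85%) in ethanol homogenates. Together these are 3.44% of the genes, where 5% would fall under 0.05 if no gene differed. DESeq2 also called 0 genes, with 594 at an unadjusted p under 0.05, and limma voom called 0, with 457. The median log2 fold change over all genes was -0.0059, and 47.7% of the genes lay above 0. In 0 genes did all ethanol libraries lie on one side of all water libraries.

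The absence of calls came with narrow intervals for most genes. The 95% interval of the fold change lay inside 1.5-fold in either direction for 12015 genes (88.5%) and inside 2-fold for 13246 (97.6%). The median half-width was 0.19 on the log2 scale. The median SD between mice of a group was 0.23 on the log2 scale, and 115 genes had an SD over 1. The narrowest intervals among list members included those of the following 4 genes. Sdha, a subunit of mitochondrial complex II, averaged 258 ± 13.3 CPM in ethanol and 260 ± 20.0 CPM in water homogenates (SD, n = 12 each), and its log2 fold change was -0.01 (95% interval -0.10 to 0.08). Srebf2, the transcription factor that drives cholesterol synthesis, had one of 0.01 (-0.08 to 0.11). Csnk1d, a kinase that sets the pace of the circadian clock, had 0.03 (-0.07 to 0.12), and Atp2c1, a Golgi calcium and manganese pump, -0.07 (-0.16 to 0.02).

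**Figure D1:**
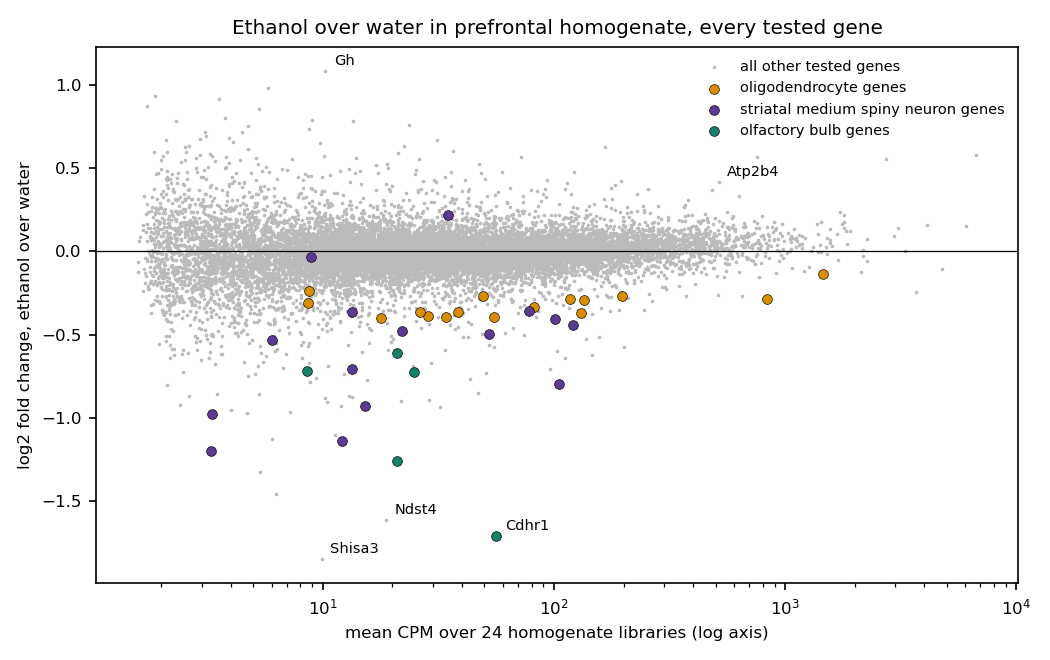
Each point is 1 of 13576 genes, with its mean CPM over the 24 homogenates on a log axis and its log2 fold change, ethanol over water, on the vertical axis. Most points lie close to 0, 11 lie beyond 2-fold, and 0 genes passed an FDR of 0.05.

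Atp2b4 had the lowest p of all genes. It encodes a plasma membrane pump that expels calcium from the cell (chr1:133699457-133801041 on GRCm38). It had 440, 607 and 780 CPM as the lowest, median and highest values in ethanol homogenates, against 314, 468 and 550 CPM in water homogenates. In 11 of 12 ethanol mice the level was above the water mean, but the groups overlapped, and 7 of 12 water libraries lay above the lowest ethanol library. The fold change was 1.33 (95% interval 1.15 to 1.55), with an unadjusted p of 0.000566 and an FDR of 0.979. Among related pumps, Atp2b1 had a log2 fold change of 0.03 ± 0.09 (SE) and Atp2b2, a pump of neurons, 0.06 ± 0.14. Atp2a2, the pump of the endoplasmic reticulum, had 0.09 ± 0.08. Of the 21 tested calcium pumps, exchangers and store channels, 15 lay above 0 with a median of 0.03, and Atp2b4 was the single member at an unadjusted p under 0.05.

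Mid1, an X-linked ubiquitin ligase that binds microtubules (chrX:169685199-170005736), had 20.7, 28.6 and 40.4 CPM in ethanol homogenates (lowest, median, highest) and 11.3, 22.3 and 32.7 CPM in water homogenates. The lowest 5 water libraries lay below every ethanol library, and the others overlapped. Its log2 fold change was 0.49 ± 0.16 over all 24 libraries and 0.74 ± 0.14 without the 5 libraries that stand apart, where it had the lowest p of any gene and an FDR of 0.439. Minpp1, a phosphatase of inositol polyphosphates (chr19:32485769-32515364), had 63.5, 69.7 and 85.1 CPM in ethanol and 48.6, 65.4 and 73.3 CPM in water homogenates. All 12 ethanol libraries exceeded the water mean of 62.1 CPM, yet 7 of 12 water libraries lay above the lowest ethanol library. Ndn, an imprinted gene of the Prader-Willi region that restrains growth in neurons (chr7:62346569-62350262), had 112, 188 and 407 CPM in ethanol and 73.4, 134 and 210 CPM in water homogenates. The highest values, 407 and 330 CPM, came from ethanol mice 62 and 66.

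The other low-p genes on this side had log2 fold changes from 0.24 for Vstm2a to 0.92 for Myh3. Fdxacb1, Zbtb22 and Armcx5 stood at 0.41, 0.27 and 0.28. Myh3, a myosin heavy chain of embryonic muscle, averaged only 4.64 ± 2.30 CPM in ethanol and 2.45 ± 1.52 CPM in water homogenates, and its log2 fold change was 0.57 ± 0.29 without the 5 libraries that stand apart. Tapbpl, a chaperone of antigen loading on MHC class I, averaged 12.5 ± 2.12 and 9.78 ± 2.04 CPM in the same order. Exons of Fdxacb1 and Zbtb22 overlap exons of other genes on the opposite strand, and those of Zbtb22 also Tapbp on its own strand, so their counts are less certain.

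Among genes lower in ethanol homogenates the lowest p belonged to Nkiras2, an inhibitor of NF-kB signalling (chr11:100619244-100627607). It had 6.96, 9.08 and 11.6 CPM in ethanol homogenates (lowest, median, highest) against 8.84, 12 and 13.1 CPM in water homogenates. Only 1 ethanol library exceeded the water mean. Its log2 fold change was -0.31 ± 0.09 (p = 0.00118, FDR 0.979, edgeR). Its exons overlap those of Dnajc7 and Zfp385c on the opposite strand. Cdk8, the kinase of the Mediator complex of transcription (chr5:146231230-146302874), had 13.9, 18.1 and 20.5 CPM in ethanol and 18.5, 21.1 and 23.0 CPM in water homogenates. All 12 ethanol libraries lay under the water mean of 20.9 CPM, and the ranges overlapped between 18.5 and 20.5 CPM. Ercc1, part of the nuclease of nucleotide excision repair (chr7:19344778-19356524), was under the water mean in every ethanol library too, at 8.85, 11.9 and 13.8 CPM against 11.1, 13.7 and 17.5 CPM in water homogenates. Scrt2, a transcriptional repressor of the nervous system, had 18.8, 24.8 and 36.5 CPM in ethanol and 18.1, 36.6 and 74.2 CPM in water homogenates. Here the lowest value of all came from a water library, and the 6 highest did too. The remaining genes of this group (among them Cdr2l, Ccnk, Cox20, Itch and Adamtsl5) had log2 fold changes between -0.54 and -0.14.

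**Figure D2:**
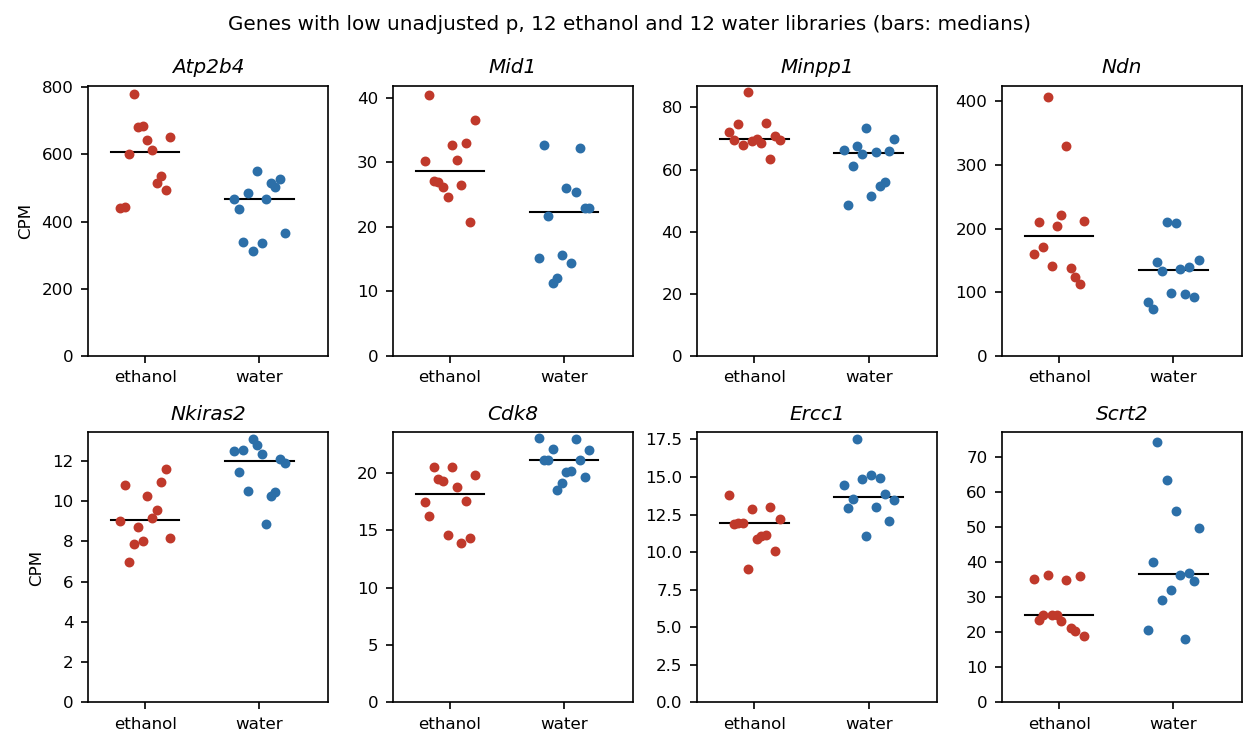
CPM of 8 genes with low unadjusted p in each of 12 ethanol (left) and 12 water (right) homogenates, with the median as a bar and each axis starting at 0. The 2 groups overlap in every panel, and in 0 of the 8 did the FDR fall under 0.05.

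Several of the largest fold changes rested on a few libraries. Beyond 2-fold lay 11 genes, 10 of them lower in ethanol homogenates, and 8 still did so without water mouse 68, 5 without the 3 libraries high in olfactory bulb genes, and 3 without all 5 that stand apart. Cdhr1, a photoreceptor cadherin that also marks mitral and tufted cells of the olfactory bulb, had a log2 fold change of -1.71 ± 0.77. Its medians were 16 CPM in ethanol and 14.8 CPM in water homogenates, and the fold came from 384 and 407 CPM in water mice 68 and 80. Without the 3 olfactory bulb libraries the log2 fold change was -0.65 ± 0.54. Those 3 were picked for high olfactory bulb genes and Cdhr1 is in that list, so this fit is no separate check of it. Shisa3, an inhibitor of Wnt and FGF signalling, stood at 90.2 and 71.8 CPM in the same 2 water mice and at 23.7 CPM in ethanol mouse 77, and its log2 fold change was -1.85 with all libraries and -0.20 without these 3. Cdh23, a cadherin of hair cell tip links, had -1.33 with all libraries and -0.37 without the 3.

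Ndst4 and Nmbr followed a different set of mice. Ndst4, a heparan sulphate sulfotransferase, reached 41.6 and 32.3 CPM in ethanol mice 66 and 62, against 116, 91.4, 48.5 and 38.9 CPM in water mice 71, 82, 73 and 80, and its medians were 4.36 CPM in ethanol and 10.7 CPM in water homogenates. Nmbr, the receptor of neuromedin B, was highest in the same ethanol pair and in water mice 71, 82 and 73. Without the 5 libraries that stand apart the log2 fold changes were -1.39 ± 0.92 for Ndst4 and -1.27 ± 0.75 for Nmbr. Of the genes with large positive changes, Ngb (neuroglobin), Shisa6 and Col25a1 each had their highest value in ethanol mouse 62, at 27.7, 138 and 286 CPM.

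The olfactory bulb genes, a list chosen after these data were seen, showed the uneven tissue most plainly. Their summed level was 1034 CPM in water mouse 68, 812 CPM in water mouse 80 and 400 CPM in ethanol mouse 77, and between 21.8 and 116 CPM in the other 21 libraries. The bulb is not part of the prefrontal cortex and adjoins its front. Mouse 68 was high in Th (74.1 CPM), the dopamine synthesis enzyme of bulb interneurons, and in the interneuron factor Sp8 (186 CPM). Mouse 80 was high in Eomes (81.8 CPM) and Tbx21 (47.1 CPM), factors of mitral and tufted cells. Mouse 68 held these as well, at 67.8 and 19.1 CPM, and mouse 80 had 16.1 CPM of Th and 29.9 CPM of Sp8. In mouse 68 Neurod6, a factor of cortical excitatory neurons, was at 8.79 CPM, the lowest value of the 24 libraries. The summed excitatory neuron list stood at 2939 CPM there, against 5376 to 9280 CPM in all other libraries.

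**Figure D3:**
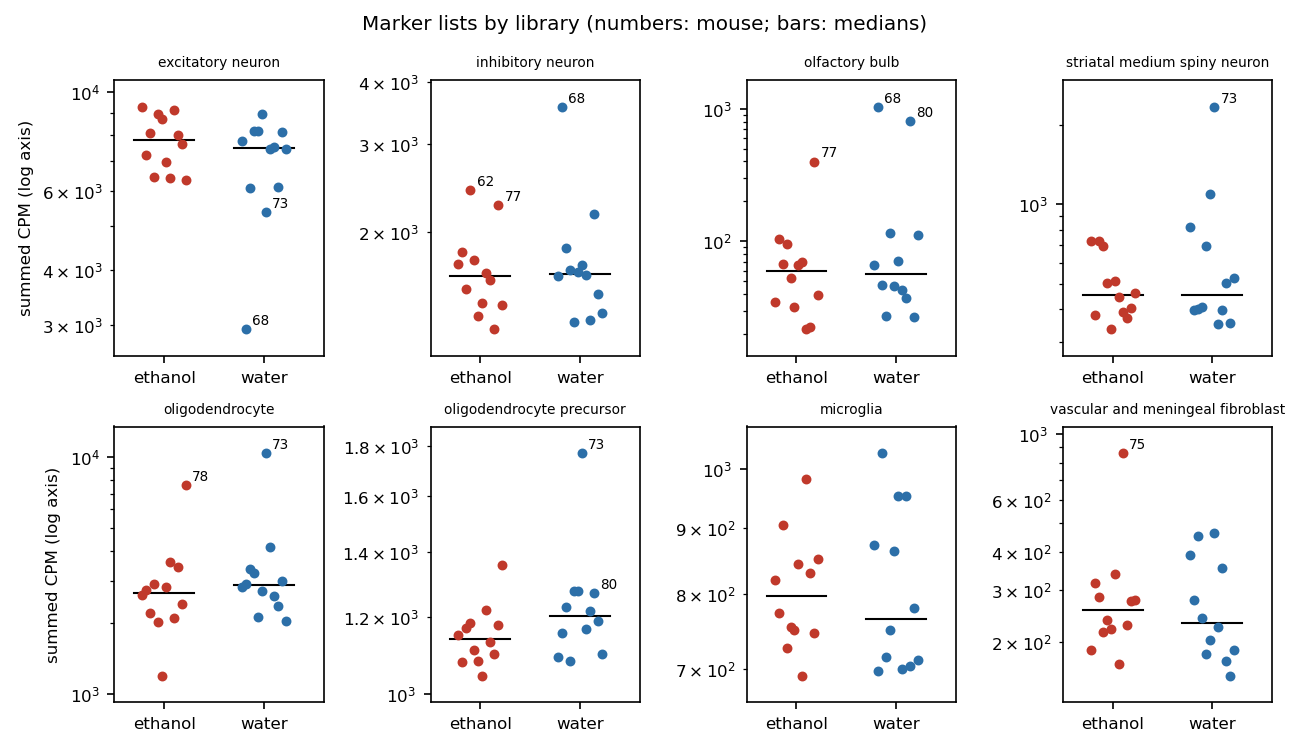
Summed CPM of 8 marker lists in each ethanol (left) and water (right) homogenate on log axes, with medians as bars and mouse numbers beside libraries that stand apart. Water mice 68 and 80 and ethanol mouse 77 lie far above the rest for olfactory bulb genes, and water mouse 73 for striatal and, with ethanol mouse 78, for oligodendrocyte genes.

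Oligodendrocytes make the myelin that wraps axons, and their precursors divide throughout adult life. All 16 oligodendrocyte genes had a log2 fold change under 0, with a median of -0.32, and 0 passed the test or an unadjusted p of 0.05. The summed list ran over 1196, 2671 and 7632 CPM in ethanol homogenates (lowest, median, highest) and over 2036, 2870 and 10357 CPM in water homogenates. The top of each group was 1 library, ethanol mouse 78 and water mouse 73, and the medians were near each other. Myrf, the transcription factor of myelination, had the lowest p of the list, with a log2 fold change of -0.40 ± 0.23. Mbp, a structural protein of compact myelin, had -0.13 ± 0.28. Without the 5 libraries that stand apart the median of the list was -0.19, and again all 16 genes were under 0. Mice 73 and 78 are among the 5 because their myelin genes were high, so this fit is no separate check of the list. The direction was not the same in both ranges of mouse numbers. In mice 59 to 74 alone Myrf had -0.69 ± 0.27, Mbp -0.64 ± 0.29 and Mog, another myelin gene, -0.79 ± 0.36. In mice 75 to 82 alone they had 0.30 ± 0.29, 0.77 ± 0.42 and 0.48 ± 0.37. Water mouse 73 belongs to the first range and ethanol mouse 78 to the second. In bulk tissue fewer cells of a type and less RNA per cell cannot be told apart, and the amount of white matter in each dissection was not tested.

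Of the 14 precursor genes, 13 lay under 0 (median -0.16), and 3 had an unadjusted p under 0.05, all lower, against 1.85% of all genes. The median was -0.11 without the 5 libraries that stand apart, and 1 gene, Gpr17, had an unadjusted p under 0.05. Gpr17, a receptor of cells on the way to myelination, had 54.6, 66 and 93.4 CPM in ethanol and 62.6, 73.7 and 106 CPM in water homogenates. The ranges overlapped between 62.6 and 93.4 CPM, and some ethanol libraries lay below every water library. Its log2 fold change was -0.23 ± 0.09 (p = 0.0121 unadjusted, FDR 0.979, edgeR). Pdgfra, the growth factor receptor that defines the precursors, had -0.16 ± 0.07. Vcan, a matrix proteoglycan, had -0.37 ± 0.14 with all libraries and -0.07 ± 0.10 without the 5, its highest value being 81.3 CPM in water mouse 80.

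Astrocyte and microglial genes were spread on both sides of 0. Of 23 astrocyte genes, 8 lay above 0 and 15 below (median -0.01), and 22 had a 95% interval inside 1.5-fold. Slc1a2, the main glutamate transporter of astrocytes, averaged 6385 ± 1010 CPM in ethanol and 5730 ± 702 CPM in water homogenates (log2 fold change 0.16 ± 0.09). Gfap, the filament protein that increases in reactive astrocytes, had -0.20 ± 0.27 and an interval from -0.76 to 0.36, so differences within these limits were not excluded. All 17 microglial genes had intervals inside 1.5-fold. Cx3cr1, the fractalkine receptor of microglia, stood at 105 ± 12.6 CPM in ethanol and 108 ± 14.5 CPM in water homogenates. Of the 10 excitatory neuron genes, 9 lay above 0 with all libraries (median 0.14) and 3 without the 5 (median -0.04).

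Endothelial genes lay above 0 in 13 of 15 cases (median 0.09) and mural genes, those of pericytes and vessel muscle, in 9 of 10 (median 0.14). One library, ethanol mouse 75, was the highest of all 24 for both lists and for vascular and meningeal fibroblast genes. In it Vwf, the clotting factor carrier of endothelium, reached 107 CPM and Myh11, the smooth muscle myosin, 69.7 CPM. Their medians were 33.7 and 12.8 CPM in ethanol and 28.4 and 11.7 CPM in water homogenates. Vwf had a log2 fold change of 0.48 ± 0.22 (p = 0.0387 unadjusted, FDR 0.979, edgeR), and 0.42 ± 0.26 without the 5 libraries that stand apart (unadjusted p = 0.13, edgeR). Ethanol mouse 75 is not among those 5, so this fit cannot show how far Vwf rests on that library. No other endothelial or mural gene had an unadjusted p under 0.05. Haemoglobin genes were at most 0.941 CPM in any library. The red blood cell list, which adds Alas2 to them, had all 5 members below the expression filter. It summed to 10.6 CPM in ethanol mouse 64, 7.80 CPM in ethanol mouse 75 and less in every other library. How much blood the libraries held was not tested.

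Striatal medium spiny neuron genes had a median of -0.49, with 14 of 15 tested members under 0, against 52.3% of all genes. There were 3 with an unadjusted p under 0.05, all lower, against 1.85% of all genes: Rarb, a retinoic acid receptor (log2 fold change -0.71 ± 0.27), Adora2a, the adenosine receptor of the indirect pathway (-1.14 ± 0.52), and Gpr6, an orphan receptor of the same neurons (-1.20 ± 0.57). Adora2a stood at 3.35, 6.19 and 16.7 CPM in ethanol homogenates and at 1.96, 6.06 and 87.0 CPM in water homogenates. The highest water value came from mouse 73, and the medians differed by little. Without the 5 libraries that stand apart the median of the list was -0.10, 0 of its members had an unadjusted p under 0.05, and Adora2a had a log2 fold change of -0.38 ± 0.50. Mouse 73 is among the 5 because its striatal genes were high, so this fit is no separate check of the list. The opioid precursor Penk was highest in water mice 73 and 71, at 379 and 326 CPM, and reached 158 CPM in ethanol mouse 62. Penk had -0.80 ± 0.41 with all libraries and -0.57 ± 0.46 without the 5, a fit that keeps water mouse 71.

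Receptors on which ethanol acts directly were spread around 0. Of 13 tested GABA-A receptor subunits, 8 lay above 0 and 5 below (median 0.04), 0 had an unadjusted p under 0.05 and 12 had intervals inside 1.5-fold. Gabrd, the delta subunit of extrasynaptic receptors, averaged 69.7 ± 18.2 CPM in ethanol and 70.2 ± 19.2 CPM in water homogenates, with an interval of the log2 fold change from -0.32 to 0.30. Per kilobase of exon the levels ran from 0.37 CPM for Gabrq to 56.6 CPM for Gabrb2 in ethanol homogenates and from 0.36 to 55.0 CPM for the same genes in water homogenates. The 15 AMPA, NMDA and kainate receptor subunits had a median of 0.02. Grin1, the obligatory NMDA receptor subunit, averaged 652 ± 50.9 CPM in ethanol and 635 ± 76.3 CPM in water homogenates (log2 fold change 0.04, interval -0.09 to 0.17). Grin2b had 0.09 (-0.17 to 0.34) and Gria2 -0.04 (-0.17 to 0.08).

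Of the ethanol-sensitive potassium channels, Kcnma1, the pore of the BK channel, came closest to the threshold of unadjusted p. It had 133, 144 and 198 CPM in ethanol and 124, 162 and 201 CPM in water homogenates, with a log2 fold change of -0.15 ± 0.08 (p = 0.0608 unadjusted, FDR 0.979, edgeR). The groups shared nearly their whole range. Kcnn2, an SK channel, had -0.11 ± 0.08, and Kcnj9, a GIRK channel of the kind ethanol opens, 0.18 ± 0.14. All 9 tested members of this list had intervals inside 1.5-fold.

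Among enzymes that clear ethanol, Aldh2 averaged 72.0 ± 6.63 CPM in ethanol and 72.0 ± 5.22 CPM in water homogenates, and the interval of its log2 fold change ran from -0.11 to 0.11. Catalase (Cat) had -0.02 ± 0.06 and Adh5, the alcohol dehydrogenase found in most tissues, -0.04 ± 0.06. Acss2, which turns acetate into acetyl-CoA, had -0.05 ± 0.05. The alcohol dehydrogenases Adh1 and Adh7 and the cytochrome Cyp2e1 were too low to be tested, Cyp2e1 at a median of 0.398 CPM in ethanol and 0.868 CPM in water homogenates, close to the limit that a count of 0 allows.

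Endocannabinoids are lipid messengers that neurons release to quiet the synapses that contact them. All 9 tested endocannabinoid genes had log2 fold changes above 0, with a median of 0.13, against 47.7% of all genes, and 0 had an unadjusted p under 0.05. Cnr1, the cannabinoid receptor of nerve terminals, had 197, 305 and 417 CPM in ethanol and 92.2, 257 and 342 CPM in water homogenates (log2 fold change 0.27 ± 0.15). Mgll, which degrades the messenger 2-arachidonoylglycerol, had 381, 479 and 570 CPM in ethanol and 244, 445 and 479 CPM in water homogenates (0.19 ± 0.09). The ethanol median of Mgll equalled the highest water value to within 1 CPM, yet the groups overlapped. Daglb and Dagla, which make that messenger, had 0.06 ± 0.06 and 0.11 ± 0.11, and Faah, which degrades anandamide, 0.13 ± 0.10. Without the 5 libraries that stand apart 8 of the 9 were above 0, with a median of 0.07, and Mgll had 0.09 ± 0.08. Cnr1 then had 0.26 ± 0.11 and was the single member at an unadjusted p under 0.05 (p = 0.0255, edgeR). In that fit 248 of 13629 genes had an unadjusted p under 0.05. Cnr1 had 0.43 ± 0.19 in mice 59 to 74 alone and -0.06 ± 0.16 in mice 75 to 82 alone.

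Neuropeptide and opioid genes were split, with 13 of 24 above 0. Vip, the peptide of one class of cortical interneurons, had 21.1, 33.4 and 50.5 CPM in ethanol and 15.4, 26.0 and 36.2 CPM in water homogenates, and was the single member at an unadjusted p under 0.05 (log2 fold change 0.43 ± 0.17, p = 0.016, FDR 0.979, edgeR). Vip had 0.33 ± 0.18 without the 5 libraries that stand apart (unadjusted p = 0.0784, edgeR). Cck, the peptide of another interneuron class and of some pyramidal cells, had 0.27 ± 0.16 with all libraries and 0.15 ± 0.13 without the 5. Oprm1, the mu opioid receptor, had -0.50 ± 0.25 at levels of 1.08 to 4.90 CPM in ethanol and 1.59 to 6.59 CPM in water homogenates, and -0.27 ± 0.27 without the 5 libraries. Pdyn, the precursor of dynorphins, had 0.22 ± 0.27.

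Immune and stress hormone genes lay on both sides of 0. Of 31 Toll-like receptor and NF-kB genes 20 were tested, 10 on each side of 0. Tlr4, the receptor of bacterial lipopolysaccharide, had -0.27 ± 0.19 with all libraries and 0.03 ± 0.19 without the 5 that stand apart. Its adaptor Myd88 had 0.11 ± 0.10 with all libraries. Icam1, an adhesion molecule that NF-kB induces, had 0.34 ± 0.18. The cytokines Tnf and Il1b were too low to test, at medians of 0.243 and 0.335 CPM in ethanol and 0.186 and 0.069 CPM in water homogenates. Of 20 glucocorticoid receptors and targets, 7 lay above 0. Nr3c1, the glucocorticoid receptor, had 0.05 ± 0.10, and Fkbp5, its inhibitor and target, -0.13 ± 0.14. Of 74 nuclear-encoded respiratory chain genes, 59 lay below 0, against 52.3% of all genes. The median was -0.03 and all 74 intervals were inside 1.5-fold. Ndufb10, a subunit of complex I, was the single one at an unadjusted p under 0.05 with all libraries (-0.12 ± 0.06). Without the 5 libraries that stand apart 68 of the 74 lay below 0, with a median of -0.06. In that fit 3 of them had an unadjusted p under 0.05, against 248 of all 13629 genes. Without the 3 libraries high in olfactory bulb genes 6 of them did, against 317 of 13637.

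**Figure D4:**
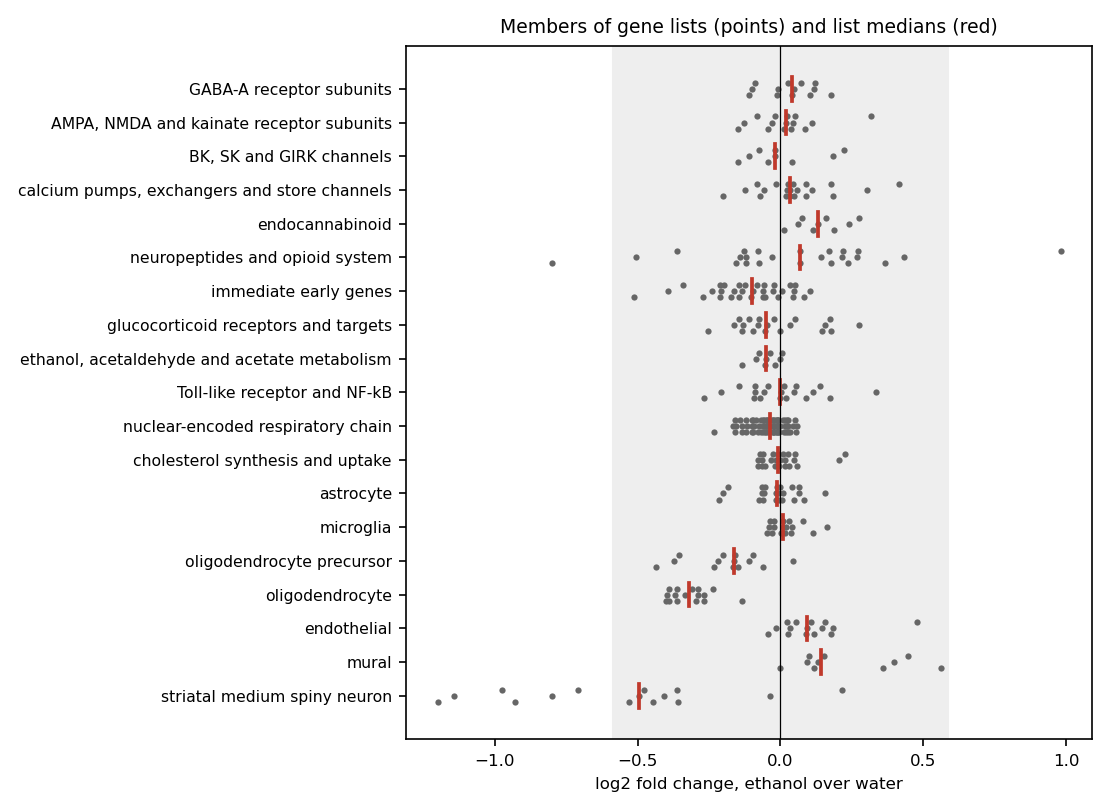
Log2 fold changes, ethanol over water, of the tested members of 19 gene lists (points), with the median of each list as a red line and changes under 1.5-fold shaded. The medians of the astrocyte and microglial lists lie at -0.01 and 0.01, and those of the oligodendrocyte and striatal lists at -0.32 and -0.49.

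Immediate early genes are switched on within minutes by synaptic activity, many of them through the factor CREB bound to cyclic AMP response elements in their promoters. Of 32 such genes 25 lay below 0 (median -0.10) and 0 had an unadjusted p under 0.05. Fos, a component of the AP-1 transcription factor, had 19.2, 51.9 and 65.3 CPM in ethanol and 21.2, 44.6 and 169 CPM in water homogenates. The highest value by far was that of water mouse 68, and the ethanol median lay above the water median. The log2 fold change of Fos was -0.21 ± 0.25 with all libraries and 0.08 without mouse 68. Mouse 68 was also the highest of the 24 for Junb, Nr4a1, Fosb, Npas4, Egr1 and Arc. Without it the list had a median of 0.01, with 16 of 32 genes below 0.

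The levels of 6 of these genes were set against Fos across the 24 mice, on the log2 scale. The 6 pairs were chosen after the data were seen, so the correlations are a description and carry no p. Fos correlated with Junb at r = 0.90 (rho = 0.86) and with Nr4a1 at r = 0.88 (rho = 0.78). Without the 2 libraries farthest from the Fos median (water 68 and ethanol 75) r was 0.89 with Junb and 0.73 with Nr4a1. Within ethanol mice r was 0.92 with Junb and 0.81 with Nr4a1, and within water mice 0.93 and 0.92. Fosb gave r = 0.84 (rho = 0.77), 0.68 without the 2 libraries, 0.73 within ethanol mice and 0.92 within water mice. Npas4 gave r = 0.72 (rho = 0.63), 0.65 without the 2 libraries, 0.47 within ethanol mice and 0.85 within water mice. Egr1 gave r = 0.59 (rho = 0.50), 0.41 without the 2 libraries, 0.53 within ethanol mice and 0.62 within water mice, or 0.32 there without mouse 68. Arc gave r = 0.57 (rho = 0.44) and 0.24 without the 2 libraries, so its relation with Fos over all 24 rests on them. For Arc, r was 0.92 within ethanol mice, 0.37 within water mice and 0.07 within water mice without mouse 68.

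The promoters of Fos and of Junb and Nr4a1, which had the highest r with Fos among the 6 pairs, were read from RefSeq on GRCm38.p6. They are shown because they hold the half-site of the cyclic AMP response element, TGACG or its complement CGTCA, marked in capitals. Each stretch is the 250 bases before the transcription start, 5′ to 3′ on the strand of the gene. Fos is at chr12:85473640-85473889 on the plus strand, Junb at chr8:84978749-84978998 on the minus strand and Nr4a1 at chr15:101266596-101266845 on the plus strand.
Fos: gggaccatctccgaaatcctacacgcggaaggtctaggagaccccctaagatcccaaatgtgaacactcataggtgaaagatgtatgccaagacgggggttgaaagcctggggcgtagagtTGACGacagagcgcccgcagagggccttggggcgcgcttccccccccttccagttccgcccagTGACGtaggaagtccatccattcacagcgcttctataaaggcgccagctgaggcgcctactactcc
Junb: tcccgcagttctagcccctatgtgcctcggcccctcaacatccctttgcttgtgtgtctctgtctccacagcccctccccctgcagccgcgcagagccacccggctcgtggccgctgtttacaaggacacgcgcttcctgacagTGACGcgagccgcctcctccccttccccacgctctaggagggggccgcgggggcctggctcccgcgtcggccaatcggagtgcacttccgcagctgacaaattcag
Nr4a1: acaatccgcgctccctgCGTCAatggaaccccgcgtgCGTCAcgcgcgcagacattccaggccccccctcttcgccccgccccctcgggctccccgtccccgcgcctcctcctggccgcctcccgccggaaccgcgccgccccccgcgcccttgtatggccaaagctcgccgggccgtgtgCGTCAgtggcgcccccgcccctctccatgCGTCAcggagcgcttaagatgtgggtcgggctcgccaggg
Fos held 2 half-sites, 129 and 66 bases before its start, Junb 1 and Nr4a1 4. Fosb held 1 and Npas4 2. Of 7 early genes looked up these 5 were read, and Egr1 and Arc were not analysed here. A half-site was present in 17.8% of all 32851 promoters of this length, and at least 2 in 3.90%. A match of these letters is not evidence of binding.

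**Figure D5:**
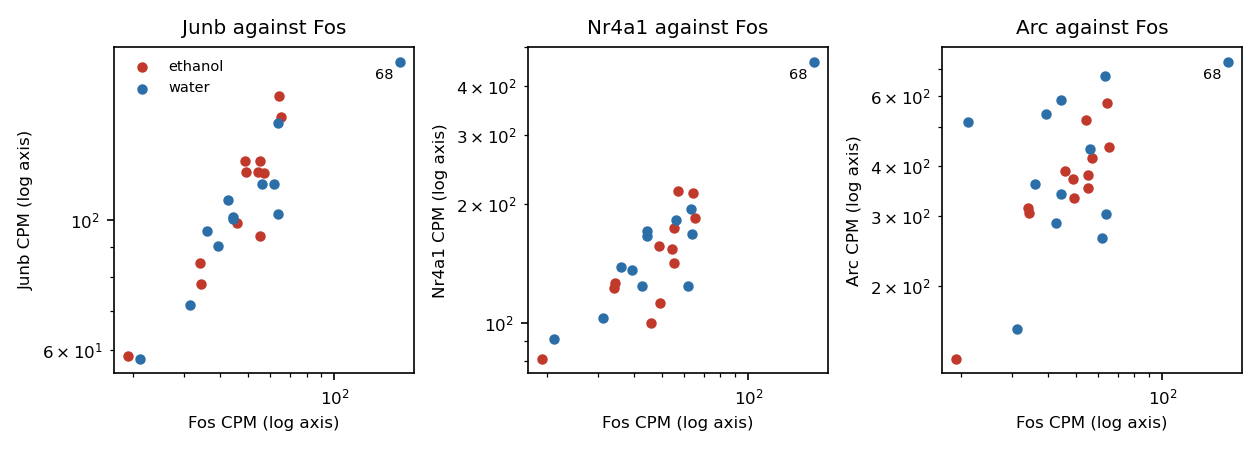
CPM of Junb, Nr4a1 and Arc against CPM of Fos in 12 ethanol and 12 water homogenates, on log axes. Junb and Nr4a1 follow Fos in both groups (r = 0.90 and 0.88), Arc less closely (r = 0.57), and water mouse 68 has the highest value of all 4 genes.

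Whether the homogenate responded differently from cells that beads carrying an antibody to ACSA2, an astrocyte antigen, had captured was tested as an interaction over all 44 libraries (10 isolated fractions per treatment). Of 14087 genes 0 were called (0%), the lowest FDR was 0.271, and 834 had an unadjusted p under 0.05. Cspg4, the NG2 proteoglycan of precursors and pericytes, had a log2 fold change of -0.06 ± 0.07 in homogenate, at 50.3 ± 3.84 CPM in ethanol and 52.4 ± 7.54 CPM in water mice, and of 0.51 ± 0.09 in isolated cells. The difference was 0.57 ± 0.13 with an FDR of 0.271 (edgeR). Negr1, an adhesion protein of neurons, had 0.10 ± 0.08 in homogenate and -0.60 ± 0.12 in isolated cells, a difference of -0.70 ± 0.15 with the same FDR. Car12, a carbonic anhydrase, had -0.55 ± 0.19 in homogenate, at 16.1 ± 4.59 CPM in ethanol and 23.4 ± 9.28 CPM in water mice, and 3.52 ± 0.97 in isolated cells. DESeq2 called Car12 (difference 3.74, FDR 0.015) and Negr1 (-0.73, FDR 0.0288) and no other gene. Of the genes with low p in homogenate, Atp2b4 had 0.18 ± 0.15 in isolated cells, a difference from homogenate of -0.24 ± 0.18, and Cdk8 had -0.08 ± 0.12, a difference of 0.16 ± 0.15. Neither difference passed the test, with an FDR of 0.907 for Atp2b4 and 0.942 for Cdk8 (edgeR).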

How the data were processed

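Poly(A) RNA of mouse medial prefrontal cortex homogenate was sequenced with a directional kit, 15 PCR cycles and 150 bp paired reads, per the labels' protocols. The submitters' processing notes name HTSeq 0.5.3p9, Picard 1.141, DESeq2, Bowtie2 2.2.5, bcl2fastq 2.17 and cutadapt 1.8, and the build mm10. Each deposited table holds raw counts of reads for 24421 gene symbols; 5 further lines that tally reads without a gene were kept out of all totals and tests. In homogenates 18.0% to 55.2% of reads were not aligned and 18.8% to 36.2% lay outside genes. Strand setting, annotation and duplicate handling of the counting were not given in the sources used here, and overlapping genes on opposite strands cannot be told apart.

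Groups came from the labels. Counts were tested with edgeR 4.0.16 (R 4.3.3; robust quasi-likelihood, TMM, its expression filter by group) over the 24 homogenates, with Benjamini-Hochberg adjustment. The fraction difference came from 1 model of 4 groups. DESeq2 1.42.0 and limma 3.58.1 were alternatives. The edgeR, DESeq2 and limma voom fits of ethanol against water in homogenate were also run on simulated data. The fraction difference, the covariate fits and the permutation test were not. Log2 levels used a prior count of 2. No mitochondrial gene is among the symbols, so that share was not computed. Positions and exon lengths are from GENCODE M21 on GRCm38, matched by symbol. Named genes are the 10 with the lowest p and the 5 with the largest change at an unadjusted p under 0.05 in each direction (mean of at least 20 counts, no predicted genes), members of the lists, genes with the widest spread or narrowest interval, and those with the lowest p for the fraction difference. The samples, lists and tests were chosen with earlier results of these data known. A mouse number marks both fractions of 1 animal, per the labels; deviations of the 20 pairs correlated with a median of 0.074 (-0.032 to 0.149), and of other pairs with -0.0029. Some genes that the rule or the lists take in are not reported here.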

Additional observations from a re-analysis of the deposited data

How the results depend on the processing

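Under all 41 alternatives edgeR, DESeq2 or limma voom called 0 genes in homogenate. These covered scaling, filters, thinning to the smallest total, leaving out each mouse, ranges of mouse numbers, and covariates for oligodendrocyte, striatal and olfactory bulb genes. The number at an unadjusted p under 0.05 was 467 and ran from 330 to 631 when 1 mouse was left out, lowest without water mouse 68 and highest without water mouse 72. It was 831 with no low-count filter (20203 genes tested), 710 in mice 75 to 82 alone (4 per group) and 248 without the 5 libraries that stand apart, a choice made after seeing the data. Of the 467 genes, 242 kept an unadjusted p under 0.05 without water mouse 68 and 114 without the 5. Without water mouse 74 the lowest FDR was 0.274, for Pappa2 (log2 fold change 1.48 ± 0.28). Genes detected differed by -25.8 in means (ethanol minus water) and by 50.5 in medians. Of 5387 values of named genes under the alternatives, 223 changed sign and 0 passed the test. At an unadjusted p under 0.05 in one of the fits, the sign turned for Ngb (-0.41) and Npas4 (0.68) in mice 75 to 82 alone, Calb2 (0.79) with DESeq2, and Gpr6 with the striatal list (0.036) or the striatal and oligodendrocyte lists (0.029) as covariates. Gpr6 is itself a member of the striatal list, so that covariate was made in part from its own values. These covariate fits are therefore no separate check of Gpr6. The cause of the other sign changes was not tested. For the fraction difference DESeq2 called 1 gene higher and 1 lower, and with the mouse as replicate block edgeR called 0 of 13814 genes, with a lowest FDR of 0.603. The edgeR calls were 0 with and without this pairing, and DESeq2 was not refitted with it. The limit set by a count of 0 was 0.329 to 0.817 CPM per library.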

Other observations

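Other genes stood high in single homogenates. Growth hormone (Gh) had a wide spread between mice, with an SD of 2.06 on the log2 scale. It was at 123 CPM in ethanol mouse 60 and between 0.129 and 24.9 CPM in all other libraries. In the same mouse Prl, the other main hormone of the anterior pituitary, stood at 20.7 CPM and Pomc, the corticotropin precursor, at 60.4 CPM. The other libraries had at most 5.50 CPM of Prl and 22.4 CPM of Pomc. The log2 fold change of Gh was 1.08 ± 0.83, while its medians were 3.25 CPM in ethanol and 3.81 CPM in water homogenates. How this RNA came into the library was not tested.

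Ttr, the thyroxine carrier made by the choroid plexus, reached 146 CPM in ethanol mouse 61 and 275 CPM in water mouse 67, with medians of 27.0 CPM in ethanol and 34.1 CPM in water homogenates. The axonemal dyneins Dnah6 and Dnah10, motors of cilia, varied widely too, with an SD between mice of 1.84 and 1.62. Lgr5 and Lgr6, receptors of R-spondins, reached 46.5 and 44.2 CPM in ethanol mouse 77 and 137 and 135 CPM in water mouse 68, both high in olfactory bulb genes. Their medians were 6.06 and 4.54 CPM in ethanol and 5.44 and 4.69 CPM in water homogenates.

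Acot3, a peroxisomal acyl-CoA thioesterase, had a log2 fold change of 0.78 ± 0.23 (p = 0.00219 unadjusted, FDR 0.979, edgeR), at 1.43, 2.72 and 4.97 CPM in ethanol and 0.491, 1.55 and 3.89 CPM in water homogenates. Its log2 fold change was 0.53 ± 0.25 without the 5 libraries that stand apart. It has near-identical neighbours in its family, between which reads can be split. Atf3, a stress-induced transcription factor, had -0.70 ± 0.32, with medians of 4.54 CPM in ethanol and 4.56 CPM in water homogenates and 26.4 CPM in water mouse 68. It had -0.36 ± 0.30 without the 5 libraries (unadjusted p = 0.246, edgeR). Wfs1, an endoplasmic reticulum protein of upper layer neurons, had 0.42 ± 0.20, and Bcl11b, a transcription factor of deep layer neurons, -0.51 ± 0.24. Neither had an FDR under 0.05, and without the 5 libraries Wfs1 had 0.33 ± 0.22 (unadjusted p = 0.148, edgeR) and Bcl11b -0.45 ± 0.29 (unadjusted p = 0.132).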
